A study of Mus musculus with 8 samples.

Results

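Peaks of CHD4 and of p300 in proliferating iMOPs were set against each other, site by site and gene by gene. The members are all 4919 peaks of the CHD4 list and all 3144 peaks of the p300 list from these cells, 8063 of the 26724 peaks in the 6 lists of the series. The lists were taken whole, with no selection by signal. iMOPs (immortalized multipotent otic progenitors) are an established mouse line with properties of inner ear progenitors. The cells were wild-type, untreated and kept in medium with 20 ng/ml bFGF. Each list stands for 1 antibody and 1 library of 500000 cells. The names of the lists call them merged, without saying what was merged. H3K4me3 peaks of the same cells, and peaks from wild-type iMOP-derived neurons kept in medium with 1 µM K03861, were used only for comparison. Cell state and medium differ together between proliferating cells and neurons and cannot be told apart. No values of the 2 IgG libraries are used here. With 1 library per antibody and state, no difference below has a replicate check and no p-value is given. Intervals in brackets are exact (Clopper-Pearson) 95% intervals of a share and cover counting error only.

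CHD4 is the ATPase of NuRD, a complex that moves nucleosomes and also carries the histone deacetylases HDAC1 and HDAC2. p300, encoded by Ep300, does the opposite chemistry: it adds acetyl groups to histones and is recruited to active enhancers and promoters by transcription factors. H3K4me3 marks the starts of active or poised genes. In CUT&Tag an antibody brings a transposase to its target, and the tagged DNA around it is sequenced, so a peak is a stretch of DNA near the protein and not the exact contact. Each peak comes with a total signal, a highest signal and the position of that highest signal, in steps of 50 bp. The scale of the signal is not given, so strength is stated here only as a percentile within a list, where 100 is the strongest.

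The promoters below are those of 6 transcript starts whose window meets the position of highest signal, for sites with both proteins, with CHD4 without p300 and with p300 without CHD4. Each is 300 bases from RefSeq (build GRCm38.p6, the same coordinates as mm10), from 250 before the start to 50 after it, in the direction of the gene. Capitals mark matches on either strand to the SOX motif ACAANG, the GC box GGGCGG, the ETS motif CCGGAA, the CCAAT box CCAAT, the CRE motif TGACGT and the NFI half-site TTGGCA. The CRE motif reads much the same on both strands, and the NFI half-site can overlap a CCAAT box. AP-1 (TGANTCA) and the TATA box (TATAAA) were also searched, with no match in these 6 windows. Ddit4, H2bc11 and Ciart are the promoters of the strongest peaks that hold the position of highest signal. Ubxn6, Dhrs3 and Dus1l were added after values were seen, as the strongest of their kind with that position in or overlapping the window. The Dhrs3 position, centred at -251 bases, lies only partly in the printed bases.
Ddit4, both, chr10:59951721-59952020, minus strand: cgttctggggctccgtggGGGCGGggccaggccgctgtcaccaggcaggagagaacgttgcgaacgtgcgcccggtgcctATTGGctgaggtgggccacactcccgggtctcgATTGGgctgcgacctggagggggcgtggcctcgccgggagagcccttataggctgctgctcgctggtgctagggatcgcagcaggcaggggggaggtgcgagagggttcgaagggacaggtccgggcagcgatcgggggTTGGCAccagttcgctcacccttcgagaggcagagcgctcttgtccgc
H2bc11, both, chr13:22042948-22043247, plus strand: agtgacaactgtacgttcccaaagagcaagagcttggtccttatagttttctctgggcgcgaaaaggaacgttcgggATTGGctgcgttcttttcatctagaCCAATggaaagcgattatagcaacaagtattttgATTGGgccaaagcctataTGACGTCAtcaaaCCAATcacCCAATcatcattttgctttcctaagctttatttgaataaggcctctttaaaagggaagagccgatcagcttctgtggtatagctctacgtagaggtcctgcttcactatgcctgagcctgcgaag
Ciart, CHD4 without p300, chr3:95882179-95882478, minus strand: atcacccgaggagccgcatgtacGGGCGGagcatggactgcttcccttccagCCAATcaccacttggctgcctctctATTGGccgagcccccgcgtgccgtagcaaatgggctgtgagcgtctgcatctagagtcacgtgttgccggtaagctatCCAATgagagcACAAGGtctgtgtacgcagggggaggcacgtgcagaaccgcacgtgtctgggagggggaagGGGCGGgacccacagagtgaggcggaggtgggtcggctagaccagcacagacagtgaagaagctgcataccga
Ubxn6, CHD4 without p300, chr17:56079284-56079583, minus strand: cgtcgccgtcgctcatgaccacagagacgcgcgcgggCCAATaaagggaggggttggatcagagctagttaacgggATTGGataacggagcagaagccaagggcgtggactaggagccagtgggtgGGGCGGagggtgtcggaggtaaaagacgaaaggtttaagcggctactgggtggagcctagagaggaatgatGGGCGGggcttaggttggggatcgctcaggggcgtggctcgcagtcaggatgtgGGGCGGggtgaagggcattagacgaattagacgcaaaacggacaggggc
Dhrs3, p300 without CHD4, chr4:144892577-144892876, plus strand: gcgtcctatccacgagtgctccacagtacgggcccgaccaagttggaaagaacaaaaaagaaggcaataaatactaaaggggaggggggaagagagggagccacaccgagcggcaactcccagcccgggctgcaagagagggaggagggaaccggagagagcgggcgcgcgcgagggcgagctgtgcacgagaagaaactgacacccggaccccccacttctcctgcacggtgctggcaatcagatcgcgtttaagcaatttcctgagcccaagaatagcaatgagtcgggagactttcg
Dus1l, p300 without CHD4, chr11:120796346-120796645, minus strand: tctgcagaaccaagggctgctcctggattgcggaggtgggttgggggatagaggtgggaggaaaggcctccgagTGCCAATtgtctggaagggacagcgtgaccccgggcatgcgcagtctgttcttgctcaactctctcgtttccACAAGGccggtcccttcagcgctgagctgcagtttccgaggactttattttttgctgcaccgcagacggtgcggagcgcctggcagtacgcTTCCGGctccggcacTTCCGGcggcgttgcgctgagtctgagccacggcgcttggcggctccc

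Ddit4 encodes a stress-induced inhibitor of mTORC1 signalling, and its promoter held 2 CCAAT boxes and 1 GC box. The CHD4 position of highest signal was centred at -206 bases from the Ddit4 start and the p300 position at -156 bases. H2bc11, a replication-dependent histone H2B gene, held 5 CCAAT boxes and a CRE motif, and both proteins peaked at the same position, 28 bases downstream of its start. Ciart, which encodes a repressor of the circadian clock, held 3 CCAAT boxes and 2 GC boxes, with CHD4 highest at -198 bases. Ubxn6 held 2 CCAAT boxes and 3 GC boxes, with CHD4 highest 7 bases downstream of its start. Dhrs3, a retinaldehyde reductase gene, held no match to any of these motifs, with p300 highest at -251 bases. Dus1l, a tRNA dihydrouridine synthase gene, held 2 ETS motifs and a CCAAT box, with p300 highest at -131 bases. A match is a description of the letters in a window and was not tested as a binding site.

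The first question was how far the sites of the 2 proteins coincide. Nearly all p300 peaks lay on CHD4 peaks, while a large share of CHD4 peaks carried no p300 peak. Overlap by at least 1 bp was found for 2856 of 4919 CHD4 peaks (58.1%, 56.7 to 59.4) and for 2888 of 3144 p300 peaks (91.9%, 90.8 to 92.8). The matches were almost all one to one: 2792 of the 2856 CHD4 peaks met exactly 1 p300 peak, and in 2726 of the 2888 pairs (94.4%) the 2 peaks overlapped only each other. Shared sequence came to 9.81 Mb, which was 50.5% of the 19.4 Mb under CHD4 and 78.5% of the 12.5 Mb under p300. The widths were close as well. The median CHD4 peak was 3400 bp wide (quartiles 2500 to 4625) and the median p300 peak 3350 bp (2450 to 4700). Within pairs the p300 peak had a median 0.93 of the width of its CHD4 partner (quartiles 0.737 to 1.11). The p300 peak lay inside the CHD4 peak in 1133 pairs and the CHD4 peak inside the p300 peak in 600, while 1124 overlapped in part and 31 had the same start and end.

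The 2 proteins also peaked at nearly the same base pairs. The median distance between their positions of highest signal was 50 bp, which is 1 step of the coordinates (quartiles 0 and 150 bp), and 72.2% of pairs were within 100 bp. The positions themselves shared at least 1 bp for 1402 of all 3144 p300 peaks (44.6%, 42.8 to 46.4). The p300 position lay inside the CHD4 partner in 98.8% of pairs, and the CHD4 position lay inside the p300 partner in 96.5%. Positions more than 1 kb apart were found in 221 pairs (7.65%). This share was 4.67% in the weakest quintile of pairs by CHD4 total signal and 17.8% in the strongest. Total signal grows with width, and the part of width in this difference was not tested. Distances were similar wherever the site was: 73.9% of pairs at gene ends, 69.8% in gene bodies and 72.0% outside genes were within 100 bp.

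H3K4me3 gave a different picture in the same cells, as the plot of distances shows. The median distance was 50 bp from p300 to CHD4, 150 bp from H3K4me3 to CHD4 (2036 pairs) and 200 bp from H3K4me3 to p300 (1378 pairs). Distances beyond 1 kb made up 7.65% of p300 to CHD4 pairs, 18.1% of H3K4me3 to CHD4 pairs and 19.3% of H3K4me3 to p300 pairs. The lists differed in their lowest listed peak, which was 16 steps of the signal for CHD4 and for p300 and 91 steps for H3K4me3, where what 1 step stands for is not given. The part of this in the distances was not tested. In neurons the median distance from p300 to CHD4 was 0 bp over 962 pairs, and 56.4% of the neuron p300 peaks shared the CHD4 position. The neuron p300 list was the shorter one, with 965 peaks.

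**Figure D1:**
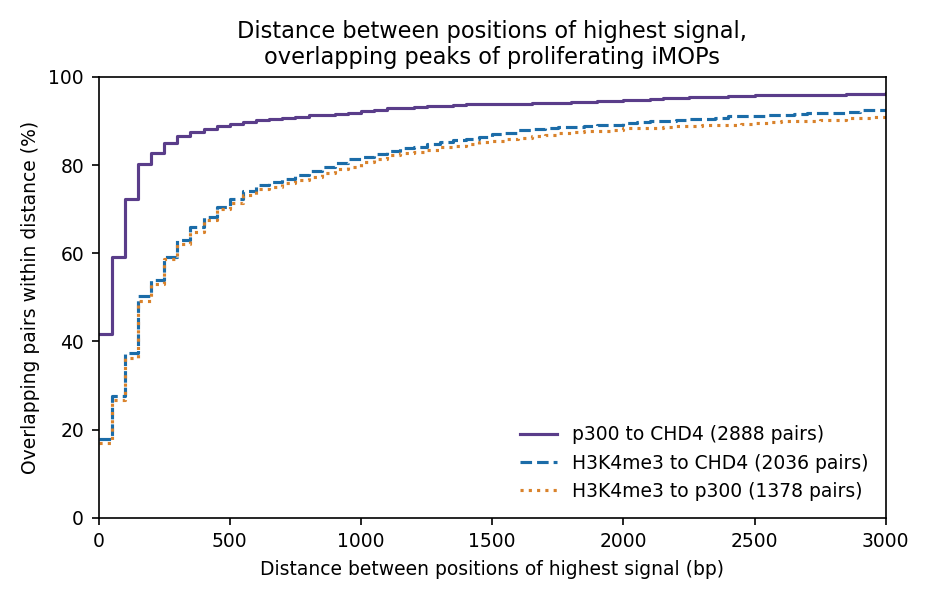
Share of overlapping pairs (%, vertical axis) whose positions of highest signal lie within a given distance (bp, horizontal axis, shown up to 3000) in proliferating iMOPs, for p300 to CHD4 (solid), H3K4me3 to CHD4 (dashed) and H3K4me3 to p300 (dotted). The p300 to CHD4 curve reaches 72.2% at 100 bp, above both H3K4me3 curves, which lie at 37.4% and 36.2%.

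Sites that were strong for CHD4 tended to be strong for p300. Over the 2888 pairs Spearman's rho was 0.67 for total signal and 0.79 for highest signal. Widths alone gave 0.68, and total signal per bp gave 0.72. With the ranks of both widths taken out, rho was 0.67 for total signal and 0.80 for highest signal. For comparison, rho of highest signal was 0.22 between H3K4me3 and CHD4 and 0.20 between H3K4me3 and p300 in the same cells, and 0.72 between p300 and CHD4 in neurons. These are descriptions across sites, not tests: sites are not independent, and the 2 libraries share cells, mappability and local copy number. The strongest sites were largely common. Of the 100 strongest peaks of each list by total signal 65 met each other, and of the 1000 strongest 726 of the CHD4 peaks (72.6%) met one of the 1000 strongest p300 peaks.

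**Figure D2:**
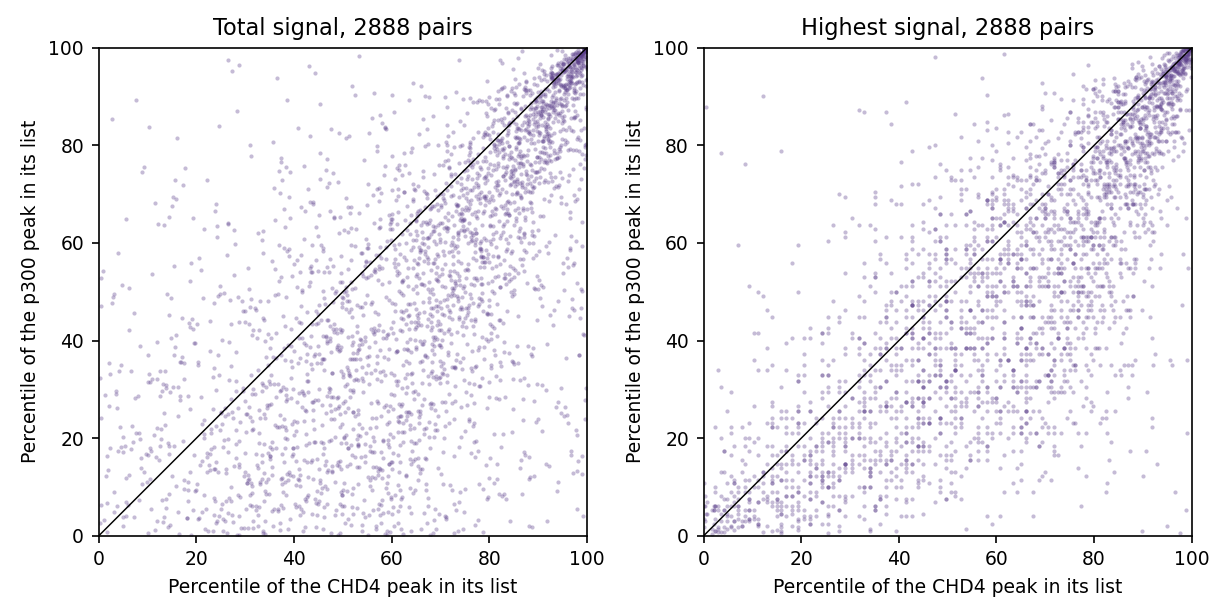
Percentile of the CHD4 peak in its list (horizontal axis) against the percentile of the overlapping p300 peak in its list (vertical axis) for 2888 pairs, by total signal (left) and highest signal (right); the line marks equal percentiles. Points narrow towards the line at the strong end, and most lie below it. CHD4 peaks without p300, with a median percentile of 26.4 by total signal, count in the CHD4 percentiles but are not in the plot.

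Among the pairs that led both lists were a region outside genes 40623 bp from Gm45988, a region inside Gse1, a region over Acot7, Gpr153 and Hes3, and a region 66625 bp from Gadd45g. Hes3 is a repressor of the Hes family, and its region was the widest of these, 31500 bp for CHD4 (chr4:152261701-152293200) and 25750 bp for p300. In these 4 pairs the positions of highest signal were the same, and none of the 4 overlapped H3K4me3. At the Gse1 pair CHD4 stood at the 99.95th percentile of total signal and p300 at the 99.79th. Gadd45g, whose product acts in growth arrest, had peaks of both proteins at its own end as well.

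A small number of pairs differed widely in percentile. Percentiles of total signal differed by more than 50 points in 221 pairs (7.65%), and those of highest signal in 89 pairs (3.08%). For total signal CHD4 ranked higher in 191 of these pairs and p300 in 30. Unpaired peaks count in the percentiles of each list. The median percentile was 68.3 for CHD4 peaks with p300 and 52.7 for p300 peaks with CHD4. At the Enc1 end (a neuronal actin-binding protein) CHD4 was at the 88.8th percentile and p300 at the 1.8th, with the same position of highest signal. At Scn8a, a neuronal sodium channel gene, CHD4 was at the 91.8th and p300 at the 3.15th percentile, with positions 500 bp apart. The other large differences of that direction, outside genes 4721 bp from Ece1 and 255899 bp from Hs6st1, the nearest genes, and at the Gse1 start, lay in wide CHD4 peaks that also met a second p300 peak. Differences of the opposite direction included ribosomal protein genes. Over Fance and Rpl10a CHD4 was at the 2.68th percentile and p300 at the 85.4th, and over Lonp1 and Rpl36 CHD4 was at the 7.6th and p300 at the 89.2nd. Both of these p300 peaks were wide, 11250 and 13600 bp, and low in highest signal, at the 6.85th and 16.5th percentiles. Ripk2 differed from them, with a p300 peak of 1450 bp at the 98.7th percentile of highest signal and CHD4 at the 61.6th.

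The farthest positions of highest signal lay in CHD4 peaks of more than 10 kb. At the Actg1 end, near Fscn2, the CHD4 and p300 positions were 13800 bp apart within a CHD4 peak of 17300 bp. At Hes5, a Notch target that represses neuronal differentiation, they were 12550 bp apart within a CHD4 peak of 20050 bp. Gse1, Mpv17l2 and Tmem104 completed the 5 farthest. Except at Hes5, the CHD4 peak of each of the 5 also met a second p300 peak. At Gse1 it was the CHD4 peak of the leading pair above, whose other p300 peak had the same position of highest signal. Hes1, a second Notch target, also had positions far apart, by 5725 bp. Its CHD4 peak was 15100 bp wide (chr16:30056451-30071550) and its p300 peak 5300 bp.

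Whether a CHD4 site carried p300 went with its strength. By quintiles of CHD4 total signal (5 groups of equal size), from the weakest to the strongest, 18.4%, 35.9%, 57.9%, 83.4% and 94.7% of CHD4 peaks overlapped p300. By quintiles of highest signal the share was 27.4% in the lowest and 89.2% in the highest, and by quintiles of width 50.2% and 74.1%. In total signal the median percentile was 68.3 for CHD4 peaks with p300 and 26.4 for those without, and the median widths were 3650 and 3100 bp. Within each quintile of total signal, which grows with width, the order of widths was the opposite. From the weakest to the strongest the medians were 2350 bp with p300 against 2700 bp without, 2700 against 3100 and 3000 against 3600. The following quintiles gave 3550 against 4800 and 5450 against 6325 bp. Within each quintile of highest signal, peaks with p300 were instead the wider ones. In the same order their medians were 4250 bp against 3850, 3750 against 3000, 3350 against 2600, 3350 against 2450 and 3850 against 1625 bp. In the other direction 82.8% of the weakest quintile of p300 peaks by total signal overlapped CHD4, and 97.3% of the strongest. Since a list ends at a threshold, a weak site can miss one list and still hold some of that protein, so "without p300" means only that no p300 peak was listed. How sequencing depth bears on this was not tested.

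**Figure D3:**
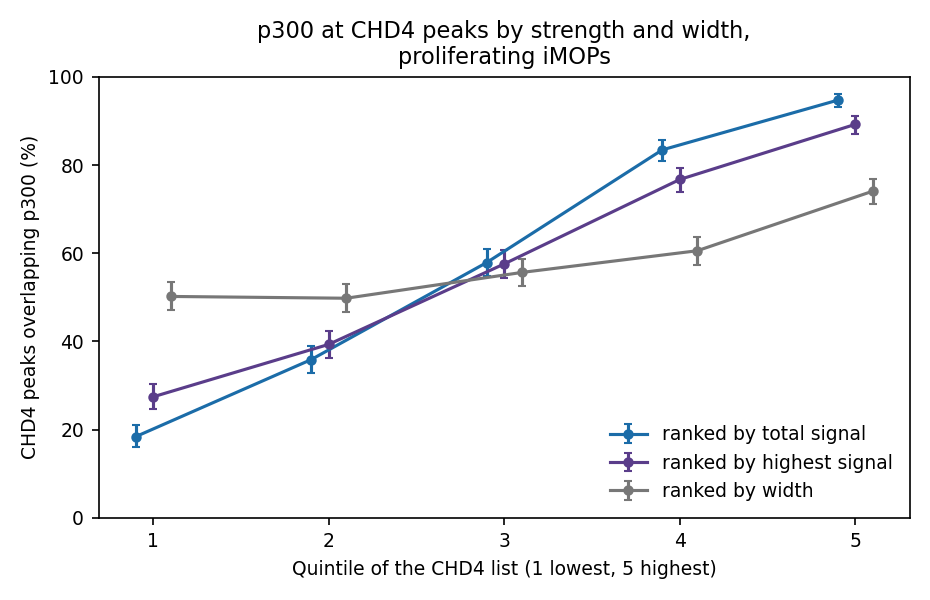
Share of CHD4 peaks that overlap p300 (%, vertical axis) in each quintile of the CHD4 list (horizontal axis), ranked by total signal, highest signal or width; bars are exact 95% intervals. The share by total signal runs from 18.4% to 94.7%, and by width from 50.2% to 74.1%.

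The kind of site also differed. H3K4me3 lay on 1306 of 2856 CHD4 peaks with p300 (45.7%, 43.9 to 47.6), on 768 of 2063 without p300 (37.2%, 35.1 to 39.4) and on 98 of 256 p300 peaks without CHD4 (38.3%, 32.3 to 44.5). A gene end, meaning 1 kb either side of an annotated end of a protein-coding gene, was met by 44.4%, 38.6% and 48.4% of the same classes. Strong CHD4 peaks had H3K4me3 less often, so the classes were also set side by side at matched strength. Within the weakest quintile of CHD4 peaks H3K4me3 lay on 68.0% of those with p300 and 43.7% of those without, and in the following quintiles the shares were 64.9% against 37.4%, 52.7% against 27.1% and 40.4% against 27.6%. In the strongest quintile it lay on 34.5% of 932 peaks with p300 and 46.2% of 52 without. The intervals of the strongest quintile overlapped, and those of the other quintiles did not. The p300 list was also cut to its 965 strongest peaks by total signal, the length of the neuron list. The share with H3K4me3 was then 42.2% both with p300 (960 CHD4 peaks) and without (3959). Gene ends were met by 41.1% with p300 and 42.2% without. CHD4 peaks whose p300 peak was cut count there as without p300, so this does not show that p300 was absent at them.

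**Figure D4:**
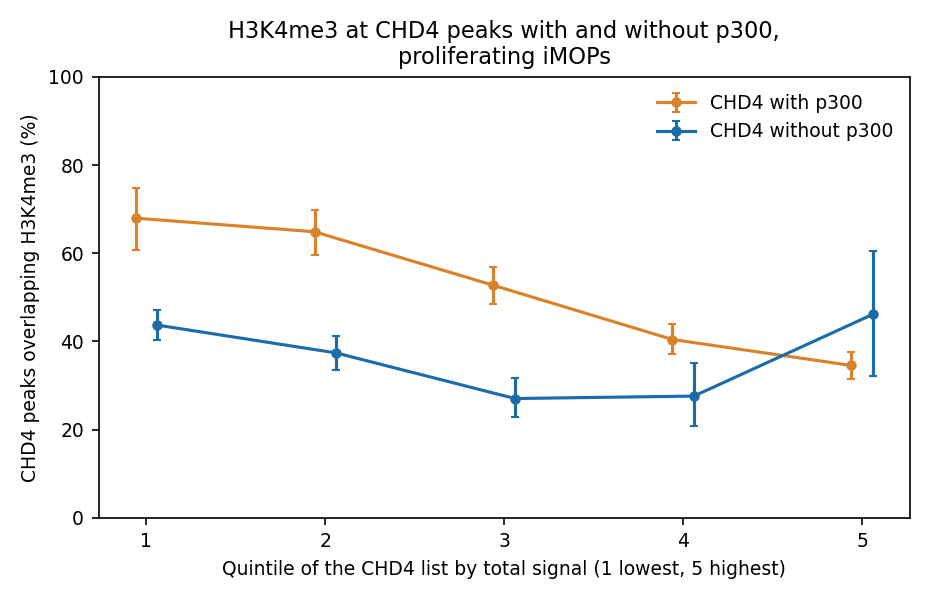
Share of CHD4 peaks that overlap H3K4me3 (%, vertical axis) in each quintile of the CHD4 list by total signal (horizontal axis), for CHD4 peaks with p300 and CHD4 peaks without p300; bars are exact 95% intervals. The share with p300 is higher in the 4 weaker quintiles, 68.0% against 43.7% in the weakest, and 34.5% against 46.2% in the strongest, where 52 peaks lack p300.

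CHD4 sites with p300 were also those more often listed again for CHD4 in neurons, by a margin that depended on how strength was matched. Neuron CHD4 peaks overlapped 80.4% (78.9 to 81.8) of CHD4 peaks with p300 and 46.7% (44.5 to 48.9) of those without. By quintiles of total signal, from the weakest to the strongest, the shares were 35.4% against 31.5%, 55.2% against 45.8%, 78.2% against 64.0%, 86.7% against 69.3% and 94.3% against 82.7%. By quintiles of highest signal, in the same order, they were 66.7% against 42.6%, 73.1% against 48.6%, 72.8% against 51.3%, 84.5% against 50.7% and 89.1% against 36.8%. Neuron p300 peaks overlapped 25.2% of CHD4 peaks with p300 and 5.67% of those without. Of the 256 p300 peaks without CHD4, 42 (16.4%) met a neuron CHD4 peak and 4 met a neuron p300 peak.

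The 8 strongest CHD4 peaks with p300 at gene ends, ranked by CHD4 total signal, lay at Ddit4, at Fcgr3 (an Fc receptor of immune cells), over Acot7, Gpr153 and Hes3, at Cacng4 (a regulatory subunit of calcium channels and AMPA receptors), over a group of 5 histone genes around H2bc11, at Trmt61a (a tRNA methyltransferase), over Lfng and Ttyh3, and at Ddr1 (a collagen receptor). At Ddit4 the CHD4 peak was 17750 bp wide (chr10:59941801-59959550), at the 99.9th percentile, and its p300 partner was 7950 bp wide, at the 98.0th percentile. Lfng encodes Lunatic fringe, which adds sugars to Notch receptors. All 8 were listed for CHD4 in neurons too, and 7 overlapped H3K4me3, the exception being the region over Hes3. Away from gene ends some of the strongest lay 2035 bp from Fcgr3, inside Slc6a17 (a synaptic vesicle transporter), inside Gse1, and 37667 bp from Sec14l1. The first of these, chr1:171067951-171084950, was the strongest of all at the 99.99th percentile of total signal.

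The 8 strongest CHD4 peaks without p300 at gene ends lay at Gsk3b (a kinase that restrains Wnt signalling), Rcor2 (a CoREST corepressor), Kat6b (a lysine acetyltransferase), Lzts2 and Twnk, Kdm6b (an H3K27 demethylase) with Dnah2, Nes, Ciart with BC028528, and 1700018B08Rik. The Gsk3b peak (chr16:38086101-38090300, 4200 bp) was at the 96.3rd percentile of total and the 98.4th of highest signal, so lack of p300 was not limited to weak sites. The Nes peak (chr3:87969201-87975400), at the gene for nestin, a filament protein of neural progenitors, was at the 92.1st percentile of total and the 54.6th of highest signal. H3K4me3 overlapped all but the one at 1700018B08Rik, and all but the one at Gsk3b were listed for CHD4 in neurons. The peaks at Kat6b and at Lzts2 overlapped a p300 peak in neurons. Away from gene ends the strongest lay inside Tex14 (a germ cell gene), on chromosome Y 4567 bp from Gm52481, 5399 bp from Trim27, and inside Atrnl1 and Zc3h7a. The last 2 were narrow, 850 and 800 bp, with the 99.97th and 99.6th percentiles of highest signal.

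p300 peaks without CHD4 were few and mostly low in highest signal. Their median was the 23.4th percentile of total and the 20.1st of highest signal, and 54 of 256 (21.1%) were above the median of the p300 list by highest signal. The nearest CHD4 peak was a median 75450 bp away over the 255 with a CHD4 peak on their chromosome. Of these, 6 were within 1 kb of one, 29 (11.4%) within 5 kb and 112 more than 100 kb away. CHD4 peaks without p300 lay a median 104300 bp from the nearest p300 peak, with 6.89% within 5 kb. Both classes were defined by lack of overlap, so these distances are descriptions only. Among the 8 strongest at gene ends 4 were wide and low in highest signal. Over Fscn2, Nploc4 and Faap100, over Mafg, Pcyt2 and Sirt7, over Rac3, Cenpx, Dcxr and Lrrc45, and over Fbf1 and Mrpl38, all on chromosome 11, p300 covered 12000 to 15950 bp with highest signal at or below the 26.7th percentile. The first was chr11:120366751-120382700. Chromosome 11 held 10.2% of p300 peaks without CHD4, 11.9% of all p300 peaks, 10.8% of all CHD4 peaks and 7.35% of the protein-coding genes. A peak of 2000 bp at Gm46592 was instead at the 97.9th percentile of highest signal. The other 3 were between these in width: 5100 bp at Duxf3, a double homeobox gene of a repeated array in mouse, 5300 bp at Gm51571 and Gm51572, and 6200 bp at Flg, the filaggrin gene of skin. Their highest signal was at the 57.7th percentile at Duxf3, the 26.7th at Gm51571 and Gm51572 and the 8.22nd at Flg. Away from ends the strongest lay near Pdia4, Zmat1, Dyrk1a and Btbd35f6 and inside Hrnr. Among all 256, 10 were wider than 10 kb, none of them above the 26.7th percentile of highest signal, and 56 were narrower than 2 kb, of which 37 were in the upper 50% of the list. Whether reads map uniquely at these sites was not tested.

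Of 21883 protein-coding genes, 1606 (7.34%) had CHD4 and p300 at the same end, 958 (4.38%) had CHD4 and no p300 at an end, and 231 (1.06%) had p300 and no CHD4. Another 10 (0.0457%) had them at different ends only. H3K4me3 was at an end of 89.2%, 81.9% and 79.7% of the first 3 groups. Among the 8221 genes with H3K4me3 at an end the shares of the same groups were 17.4%, 9.55% and 2.24%. Of all genes with CHD4 at an end 62.8% had p300 too. In 73 of the 958 genes the CHD4 peak met p300 farther out along its length. With only the stronger 50% (total signal) of both lists, 683 genes had both and 457 had CHD4 without p300. A gene whose p300 peak fell outside the stronger 50% counts there as without p300. The gene lists that follow were chosen with earlier results of these data known, so their counts are descriptions beside these background shares.

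Some genes of NuRD and of the acetyltransferases were themselves among the sites. Chd4 had a CHD4 peak and no p300 peak (chr6:125093501-125096500, 3000 bp, 31.3rd percentile of total signal), and it overlapped its transcript start. Ep300 and its relative Crebbp had neither protein at an end, although both had H3K4me3. Of 15 NuRD genes 7 had both proteins (46.7%), which were Cdk2ap1, Chd3, Mbd3, Rbbp4, Gatad2a, Hdac2 and Gatad2b. Another 2 had CHD4 without p300, Chd4 and Hdac1. No start with strand was known for Hdac1, so whether its peak lay at the start cannot be told here. At Hdac2, which encodes a deacetylase of the complex, CHD4 was at the 47.1st and p300 at the 30.3rd percentile of total signal with the same position of highest signal. Among 21 genes of acetyltransferases, acetyl-lysine readers and other cofactors 4 had both (Brd2, Cited2, Kat7 and Ncoa2) and Kat6b had CHD4 alone. The 4 are 19.0% of the list, beside 7.34% of all genes and 17.4% of genes with H3K4me3 at an end.

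Genes of signalling pathways were counted next. Of 23 Notch genes 9 (39.1%) had both proteins: the ligand Dll1, the receptors Notch1 and Notch2, the modifier Lfng, the feedback gene Nrarp and the effectors Hes1, Hes5, Hes6 and Hey1. Jag1, Mfng and Numb had CHD4 without p300, and Rfng had p300 without CHD4. At Dll1 the CHD4 peak was 12400 bp and the p300 peak 11700 bp wide, at the 99.4th and 99.7th percentiles, with positions 150 bp apart. Of 23 FGF receptor and feedback genes 7 had both, among them Fgfr4, Dusp6 and the effectors Etv5 and Etv1. The Fgfr4 peaks lay at the end away from its annotated start, and this gene had no H3K4me3 at an end. Spry4 and Dusp7 had CHD4 without p300. Of 14 Id and Myc family genes 6 had both, including Id1, Id2 and Id3, which encode inhibitors of bHLH factors, and Myc and Mxi1 had CHD4 without p300. Of 28 AP-1 and immediate early genes 11 had both, led by Junb, Jun, Klf10 and Jund. Of the genes with CHD4, p300 was at an end too in 75% of the Notch and 77.8% of the FGF list. The share was 75% in the Id and Myc and 68.8% in the AP-1 list, beside 62.8% over all genes with CHD4. These shares rest on 8 to 16 genes a list, and their difference from all genes was not tested. Of the 5 other AP-1 and immediate early genes with CHD4 the peaks at Zfp36 and Srf met p300 away from the gene end. The Zfp36 peak lay at the end away from its annotated start.

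In the Wnt, Hedgehog and BMP list and the semaphorin list more genes had CHD4 without p300 than had both proteins. Of 25 Wnt, Hedgehog and BMP genes 4 had both proteins (Smad6, Skil, Gli3 and Ski) and 7 had CHD4 without p300, among them the Wnt effectors Lef1, Tcf7, Tcf7l1 and Tcf7l2 and the Hedgehog effector Gli1. So 36.4% of the CHD4 genes of this list had p300, against 62.8% over all genes with CHD4. The Tcf7l2 peak counted here lay at the end away from the annotated start of the gene. Of 31 semaphorin, plexin and neuropilin genes 4 had both (Sema6a, Sema6c, Plxnc1 and Sema4b) and 8 had CHD4 without p300, led by the co-receptor gene Nrp2 at the 81.1st percentile. The other 7 of these, such as Nrp1 at the 31.7th and Plxna1 at the 27.5th percentile, stood at or below the 40.8th. Of 22 Eph receptor and ephrin genes 4 had both and 5 had CHD4 without p300. At Epha4, a guidance receptor gene, CHD4 was at the 72.0th and p300 at the 10.4th percentile with the same position of highest signal. Of 23 Slit, Robo and netrin genes 3 had both. Since weak CHD4 peaks carried p300 less often everywhere, the low shares of these lists and the low percentiles of their peaks cannot be told apart. With the stronger 50% of each list, 0 Wnt, Hedgehog and BMP genes had both proteins and 3 had CHD4 without p300. For the semaphorin list the counts were 1 and 4. These counts without p300 include genes named above with both proteins, whose weaker p300 peaks were cut: Smad6, Skil, Sema6a, Plxnc1 and Sema4b. They do not show that p300 was absent there.

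Genes of proliferation and of fate gave mixed counts. Of 30 cell cycle genes 9 had both proteins, such as E2f1, E2f3, Mcm7 and Cdk2, 6 had CHD4 without p300 and Mcm4 had p300 alone. With the stronger 50% of each list 1 cell cycle gene had both. The peaks at E2f2 and Cdc6, the strongest of the 6, met p300 away from the gene end. The Cdc6 peak and the Cdk2 peaks lay at the end away from the annotated start of the gene. Of 16 cell cycle exit genes 6 had both, including Gadd45b, Gadd45g and Btg2, while Gadd45a and Cdkn1b had CHD4 without p300. At Gadd45b the 2 positions of highest signal were 10750 bp apart. Of 24 otic regulators Sox2 had both and Sox9 had CHD4 without p300, although 12 of the 24 had H3K4me3 at an end. Sox2 is the progenitor factor of this lineage, and its CHD4 peak (chr3:34647551-34650400) was at the 65.3rd and its p300 peak at the 53.7th percentile, with the same position of highest signal. Of 26 neuronal transcription factor genes Pou3f3, Pou3f2, Neurog2 and Insm1 had both and Scrt1 had CHD4 without p300. Of 28 neuronal cytoskeleton genes Tubb3, Tubb2b and Stmn1 had both and Map1b, Ncam1 and Map2 had CHD4 without p300.

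Of the 22 lists the histone genes had the highest share with both proteins, and the ribosomal protein genes had the highest share with p300 without CHD4. Of 29 replication-dependent histone genes 23 (79.3%) had both proteins, at a median of the 92.2nd percentile of CHD4 and the 81.9th of p300 total signal. Neighbouring histone genes share peaks, so the 23 genes rest on 15 CHD4 peaks. H4c2 and H4c6 had CHD4 without p300. Of 25 ribosomal protein genes 4 had both (Rpl3, Rpl7, Rps18 and Rps2), 4 had CHD4 without p300 (Rpl13, Rpl27, Rps19 and Rpl19) and 4 had p300 without CHD4 (among them Rps3, Rpl32 and Rpl4). The last count is 16.0% of the list, against 1.06% of all genes, and 24 of the 25 had H3K4me3. The p300 peaks at Rps3 and Rpl4 lay at the end away from the annotated start.

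Lists of genes of other cell types had shares with both proteins near that of all genes. CHD4 and p300 met at Myo6 of 20 hair cell genes, Erbb3 of 16 glial genes, Vim of 16 mesenchyme genes, Cd68 of 14 blood and endothelium genes, and at members of the liver list of 20 genes such as Apoa2, and Cnp, a glial gene, had p300 alone. The shares with both ran from 5% to 10%, beside 7.34% of all genes and 4.17% of the otic regulators. H3K4me3 was at an end of 1 of the 20 hair cell genes, 5 of the 16 glial, 3 of the 16 mesenchyme, 1 of the 14 blood and endothelium and 1 of the 20 liver genes. Peak lists do not measure expression, so these counts do not identify the cells.

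**Figure D5:**
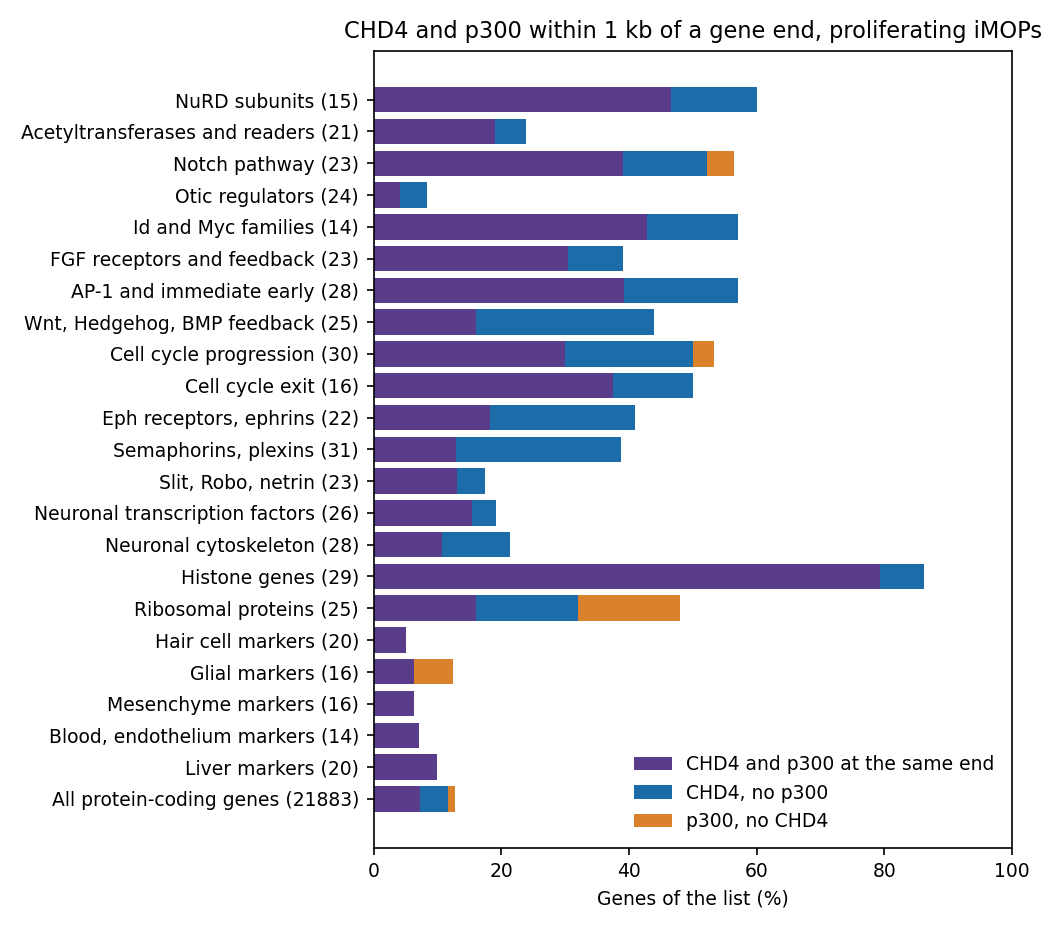
Share of the genes of each list (%, horizontal axis; number of genes in brackets) with CHD4 and p300 at the same end, with CHD4 and no p300 and with p300 and no CHD4, with all protein-coding genes in the lowest row. Histone genes reach 79.3% with both proteins, the semaphorin and the Wnt, Hedgehog and BMP lists hold more genes with CHD4 alone than with both, and the ribosomal protein list has 16.0% with p300 alone.

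At transcript starts with both proteins CHD4 and p300 were mostly highest upstream of the start, while H3K4me3 positions lay about equally on both sides. Starts with strand were known for 17491 genes (21262 starts), none on chromosome 18. Within 1 kb, 1400 starts (6.58%) had CHD4 and p300, 888 (4.18%) had CHD4 without p300 and 176 (0.828%) had p300 without CHD4. At the shared starts the median position was -148 bp for CHD4, -139 bp for p300 and 1 bp downstream for H3K4me3. Negative values lie before the start, as did 68.1%, 66.1% and 49.8% of positions in the same order. Regardless of side, the median distance to the start was similar: 277 bp for CHD4, 254 bp for p300 and 261 bp for H3K4me3. At starts with CHD4 without p300 the median was -112.5 bp for CHD4 and 66 bp downstream for H3K4me3, of whose positions 38.1% lay before the start. At starts with p300 without CHD4 the p300 median was -53.5 bp, with 54.0% of positions before the start. Within 500 bp of the start lay 49.4% of the p300 positions at starts without CHD4, and 68.4% of those at shared starts.

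Shares of promoters that held the motifs marked in the sequences above were then compared. A CCAAT box was found in 48.9% (46.2 to 51.5) of the 1400 promoters with both proteins, 37.7% (34.5 to 41.0) of those with CHD4 without p300 and 35.2% (28.2 to 42.8) of those with p300 without CHD4. It was in 37.3% of 5818 promoters with H3K4me3 and neither protein and 38.2% of all 21262. Without the 47 histone starts the share with both was 47.5%. The ETS motif was in 19.8% of promoters with both, 19.7% with CHD4 without p300, 36.4% (29.3 to 43.9) with p300 without CHD4, 34.8% with H3K4me3 and neither, and 18.7% of all. Its share was thus lower in both groups with CHD4 than in both groups of starts without CHD4 that had p300 or H3K4me3. The GC box, which goes with base composition, was in 71.6%, 72.7%, 60.8%, 69.7% and 46.2% of the same 5 groups, whose median GC contents were 63.7%, 64.2%, 60.5%, 63.0% and 56.3%. The intervals of the GC box share were 69.2 to 74.0 with both proteins, 69.7 to 75.7 with CHD4 without p300 and 53.2 to 68.1 with p300 without CHD4, so the last did not overlap the others. The CRE motif was in 11.6%, 8.78%, 9.09%, 13.8% and 8.49%. The SOX motif was in 31.4%, 29.8% and 36.4% of the first 3 groups and 38.1% of all. AP-1 was in 3.21%, 4.39% and 5.68% and 6.99%, the E-box CANNTG in 58.6%, 60.2% and 68.8% and 69.0%, the NFI half-site in 10.4%, 10.7% and 9.09% and 13.1%, and the TATA box in 7.29%, 5.74% and 10.8% and 12.6%. Several starts of 1 gene and both starts of a divergent pair can share bases, so promoters are not independent.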

How the data were processed

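CUT&Tag libraries for CHD4 and p300 in proliferating iMOPs were compared, with 4 further lists as comparators. The total and highest signal of each peak are values the authors deposited, in the 6 columns of SEACR output. Bowtie2, deepTools, SEACR and the build mm10 are named without versions or roles in the submitters' processing notes. Scaling, thresholds, the use of IgG and the treatment of duplicates are not given in the sources used here, and read depth is unknown, so signal was used only to rank peaks within a list. Total signal grows with width. All highest signals were whole multiples of 1 step per list, within 0.02 of a step.

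The members and the 22 gene lists (487 genes, all found) were chosen with earlier results of these data known. Computation used SciPy 1.17.1, pandas 2.3.3 and numpy 2.4.6 under Python 3.11.15, and the script was tested on simulated data. Peaks overlapped when they shared at least 1 bp. A p300 peak was paired with the CHD4 peak that shared most bases with it, and distances ran between midpoints of the positions of highest signal. Genes came from a RefSeq table of GRCm38.p6 (21883 protein-coding genes, unplaced sequence left out). Its spans carry no strand, so both ends with 1 kb either side were used. Transcript starts with strand came from a RefSeq promoter table.

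Named by rule were 9 genes in all cases, the 8 strongest peaks at gene ends and 5 away from them (nearest gene within 50 kb) in each class, 5 pairs each for agreement, difference in each direction and distance, and up to 4 members per list and class. Further list members and 3 of the printed promoters were named after their values were seen. Some items that the rule names are not reported here. Alternatives were overlap of at least 50% of a peak, gaps up to 1 kb bridged, the stronger 50% of each list, a CHD4 list trimmed to the p300 length, windows of 500 bp and 2.5 kb, positions within 100 bp and one-to-one pairs. Chosen after seeing the data were numbered chromosomes only, 50-bp positions only, transcript starts and a p300 list trimmed to the neuron length.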

Additional observations from a re-analysis of the deposited data

Results flagged for a closer look

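The kind of site where CHD4 met p300 had opposite signs in the 2 states, each from 1 library per antibody, and the difference between the states was not tested. In proliferating iMOPs H3K4me3 lay on 45.7% of CHD4 peaks with p300 and 37.2% of those without, a difference of 8.50 percentage points. In neurons it lay on 16.1% of 918 CHD4 peaks with p300 and 29.5% of 3681 without, a difference of -13.4 points. Gene ends followed the same pattern: 44.4% with p300 and 38.6% without in proliferating cells, a difference of 5.73 points, and 27.7% with and 38.6% without in neurons, a difference of -11.0 points. The p300 list was shorter in neurons. The proliferating p300 list was therefore also trimmed to the same length, 965 peaks, by total signal. The difference in proliferating cells was then 0.0304 points for H3K4me3 (42.2% both with and without p300). For gene ends it was -1.01 points (41.1% with and 42.2% without). CHD4 peaks whose p300 peak was cut count there as without p300, which gave 960 with and 3959 without.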

How the results depend on the processing

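No paired analysis was possible because each antibody and state has 1 library. For the same reason no library could be left out. The share of CHD4 peaks with p300 was 53.9% with at least 50% of the peak covered, 55.6% in the stronger 50% (by total signal) and 76.8% with the CHD4 list trimmed to the p300 length. The share of p300 peaks with CHD4 under the same settings was 88.9%, 87.8% and 78.3%, and 89.7% for the stronger 50% by highest signal. The shared position of highest signal was found for 53.6% in the stronger 50% by highest signal, 37.5% with the trimmed list and 66.3% when midpoints within 100 bp counted. The median distance was 0 bp in the stronger 50% by highest signal, and the width ratio of CHD4 peaks with to without p300, 1.18, was 1 with the trimmed list. The rank correlation of total signal was 0.81 in the stronger 50% by highest signal and 0.70 for one-to-one pairs, and that of highest signal was 0.81 and 0.70 in the stronger 50% by total and by highest signal and 0.82 for one-to-one pairs.

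Gene-end shares of CHD4 peaks with p300, CHD4 peaks without it and p300 peaks without CHD4 were 47.6%, 42.4% and 55.1% with 2.5 kb, 39.5%, 33.1% and 66.0% for the stronger 50% by total signal, and 34.9%, 30.7% and 34.4% at transcript starts. Genes with both proteins numbered 683 and genes with CHD4 without p300 457 in the stronger 50%, where 208 of the 958 genes had CHD4 without p300 in both settings; genes with p300 without CHD4 numbered 147 at transcript starts. The difference in H3K4me3 share was 0.0304 points with the p300 list trimmed to the neuron length. CHD4 peaks whose p300 peak was cut count there as without p300. Of 132 counts for gene lists under other settings 101 stayed within 1.5 times and 31 did not, 25 of them in the stronger 50%. Where no value here shows a cause, the cause was not tested. Without read depth it cannot be told how many sites fell below a list's threshold.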
